A study of Mus musculus with 3 samples.

Results

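The genes of glycolysis and of the pentose phosphate pathway were examined in 3 mouse leukaemia cell lines with a kinase inactive CDK6. The group holds 34 of the 50686 genes in the count table. It was chosen by symbol along both pathways, from the glucose transporters through each enzyme of glycolysis to lactate dehydrogenase and the lactate transporters, and then from glucose-6-phosphate dehydrogenase to transaldolase, with the related isozymes of each step. All 34 symbols were found.

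The study asked what the kinase function of CDK6 does to metabolism in BCR::ABL1+ leukaemia. The 3 lines were grown from bone marrow of C57BL/6 mice that are homozygous for the CDK6 mutation K43M (Cdk6 KM/KM), after retroviral transduction with BCR-ABL p185, and the sample record calls them pre/pro-B cells. Every line therefore carries both the mutant kinase and the oncogene, and the labels number the lines as replicates without saying whether they came from separate mice. Wild-type and knockout lines were not analysed here. What follows are therefore levels and the spread between the Cdk6 KM/KM lines, with no effect of genotype.

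Glycolysis turns glucose into pyruvate in the cytosol and yields ATP without oxygen. Cells that divide fast often reduce much of this pyruvate to lactate and export it, which regenerates NAD+. The pentose phosphate pathway branches off at glucose-6-phosphate: its oxidative arm makes NADPH, and its non-oxidative arm exchanges sugars between ribose-5-phosphate, needed for nucleotides, and the intermediates of glycolysis.

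Poly(A) RNA was sequenced, and the reads on the exons of each gene were counted by the authors. Libraries held between 19633463 and 25773221 counts. Levels are given as counts per 1000000 (CPM) after TMM scaling, and as CPM per kb of merged exons where genes are compared with each other. A count of 0 allows a level of up to 3 counts, or 0.118 to 0.152 CPM. Of 14 markers of B cell precursors, 13 reached 1 CPM in each line, and the summed level of the list ranged from 4435 to 5171 CPM. The exception was Dntt at 0.967, 1.62 and 4.28 CPM in lines 1, 2 and 3. Rag1 was read at 22.4, 91.4 and 32.4 CPM. Of 8 T and NK cell markers, 5 had no counts, with Cd3e and Cd3g among them, and the list summed to 0.864 CPM or less. The 8 myeloid markers summed to 3.93 CPM or less and the 7 erythroid and platelet markers to 1.22 CPM or less, and Elane, Ly6g, S100a8, Hba-a1, Hbb-bs and Pf4 had no counts. Most of the myeloid sum came from Lyz2, at 1.66, 2.03 and 3.57 CPM in lines 1, 2 and 3. Of 5 markers of stroma and endothelium, 4 had no counts, and Pecam1 was read at 49.5 to 99.7 CPM. Of 5 markers of mature B or plasma cells, Cr2 and Jchain had a mean of at least 5 CPM, and the list summed to 16.6 to 36.3 CPM. In bulk RNA, fewer cells of a type and less RNA per cell cannot be told apart.

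The 34 genes took 0.787% ± 0.0124 (SD, n = 3) of all counts. The 27 genes of glycolysis and transport took 0.576% ± 0.00935, and the 7 genes of the pentose phosphate pathway took 0.212% ± 0.0113. A level of 1 CPM or more was found in every line for 30 of the 34 genes. The exceptions were Hk3, Eno2, Ldhb and Slc16a3, which all stayed under 0.26 CPM. Each of these 4 is an isozyme of a step at which another isozyme was read at over 100 CPM, so no step was without a transcript.

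**Figure D1:**
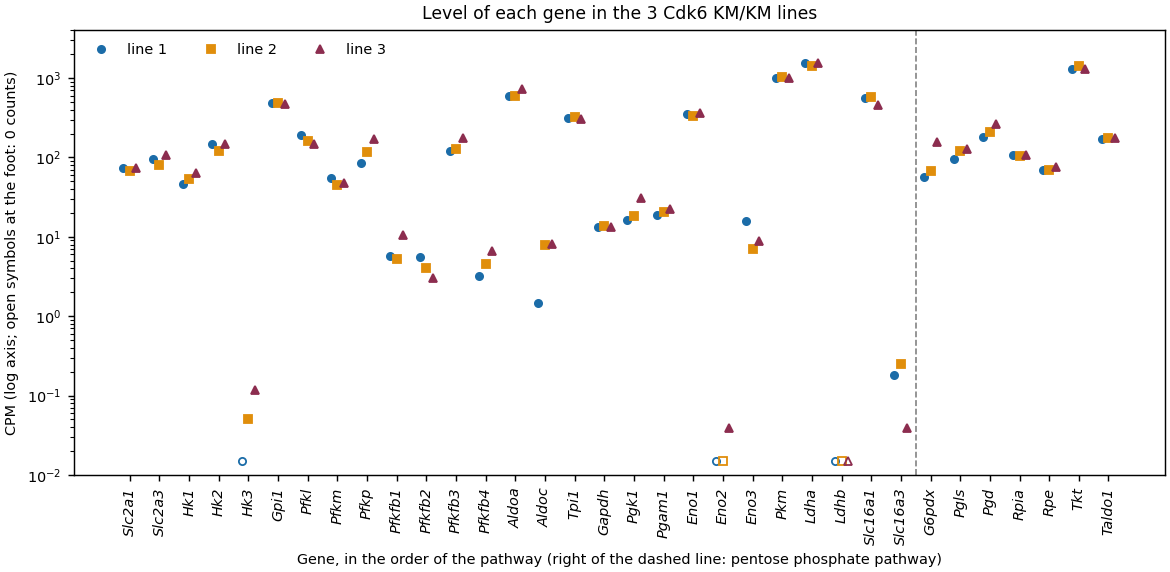
Level of each gene in CPM on a log axis, with 1 symbol per Cdk6 KM/KM line and the genes in pathway order. Ldha reached 1430 to 1553 CPM and Tkt 1286 to 1432 CPM, whereas Ldhb had 0 counts in all 3 lines, shown as open symbols at the foot of the plot.

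Per kb, the highest level was that of Ldha, which reduces pyruvate to lactate, at 457 ± 21.5 CPM per kb. Aldoa, the aldolase that splits fructose-1,6-bisphosphate, followed at 219 ± 23.7 CPM per kb, then Pkm, the pyruvate kinase, at 201 ± 2.30 CPM per kb. Tkt, the transketolase of the non-oxidative arm, stood at 182 ± 11.2 CPM per kb. With merged exons as the length, the lines of neighbouring genes in this order did not overlap from Ldha down to Slc16a1, nor from Tpi1 down to Pgd. From Pgd down to Eno3 the lines of every neighbouring pair overlapped, so the order within this stretch is not resolved. In all, 22 of 33 neighbouring pairs overlapped. The order also depends on the length used. Another scale, described below, divided the CPM of the whole gene by the number of read-length stretches of the main transcript. On that scale Aldoa, Pkm and Tkt had 425 ± 45.9, 423 ± 4.84 and 421 ± 26.0 CPM per 1000 stretches. Their order is not resolved there, and Slc16a1 moved from rank 5 to rank 10. A further scale divided the CPM of the whole gene by the number of stretches that no other gene holds. On it Pkm and Eno1 had ranks 2 and 3, above Aldoa at rank 4. Ldha kept rank 1 on each of these scales.

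Glucose enters through Slc2a1 (GLUT1) and Slc2a3 (GLUT3), and both transporters were read in each line. Slc2a1 was read at 74.3, 68.0 and 73.6 CPM in lines 1, 2 and 3, and Slc2a3 at 95.3, 80.6 and 107 CPM. Both were lowest in line 2. Slc2a1 took 61.3% ± 2.40 (SD, n = 3) of their joint level per kb, but 43.5% of their counts without division by length, and 48.3% when the transcript with the longest open reading frame gave the length. The leading transporter therefore depends on the length used and is not settled by these counts. Hexokinases trap glucose as glucose-6-phosphate. Hk2, the isozyme of many tumours, was read at 146, 122 and 146 CPM and took 78.2% ± 2.99 of the hexokinase level per kb, and Hk1 was read at 46.9, 53.1 and 64.4 CPM and took 21.8% ± 2.95. Hk3 had 0, 1 and 3 counts. Hk2 led Hk1 in each line with each length tried.

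Phosphofructokinase, which commits the sugar to glycolysis, was the only enzyme step with 3 isozymes that each had a share of over 10%. Pfkl, the liver type, was read at 189, 161 and 146 CPM and held the largest share per kb, with 55.2%, 51.9% and 44.9% in lines 1, 2 and 3. Pfkm, the muscle type, was read at 55.7, 45.6 and 47.3 CPM and held 32.4%, 29.4% and 29.1%. Pfkp, the platelet type, was read at 85.6, 116 and 169 CPM and held 12.4%, 18.7% and 25.9%. Line 3 thus had the highest share of Pfkp and the lowest of Pfkl. The share of Pfkp depends on its merged exon length of 13401 bases. In counts without division by length, Pfkp held 25.9%, 36.0% and 46.7% and Pfkm 16.8%, 14.2% and 13.1%, and with the length of a single transcript Pfkp held 22.8%, 32.2% and 42.3% and Pfkm 21.3%, 18.2% and 17.1%. On these 2 scales Pfkp stood above Pfkm in each line, the reverse of the order per kb of merged exons, and above Pfkl in line 3. On all 3 scales Pfkp had its lowest share in line 1 and its highest in line 3.

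The level of fructose-2,6-bisphosphate, which activates phosphofructokinase, is set by the bifunctional enzymes of the Pfkfb family. Pfkfb3, the member with the strongest kinase activity, was read at 119, 127 and 174 CPM and took 84.8% ± 0.80 of the level of the family per kb. Pfkfb1 was read at 5.67, 5.32 and 10.4 CPM, Pfkfb4 at 3.22, 4.56 and 6.67 CPM and Pfkfb2 at 5.53, 4.05 and 3.02 CPM. Pfkfb3, Pfkfb1 and Pfkfb4 were highest in line 3, whereas Pfkfb2 was lowest there.

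**Figure D2:**
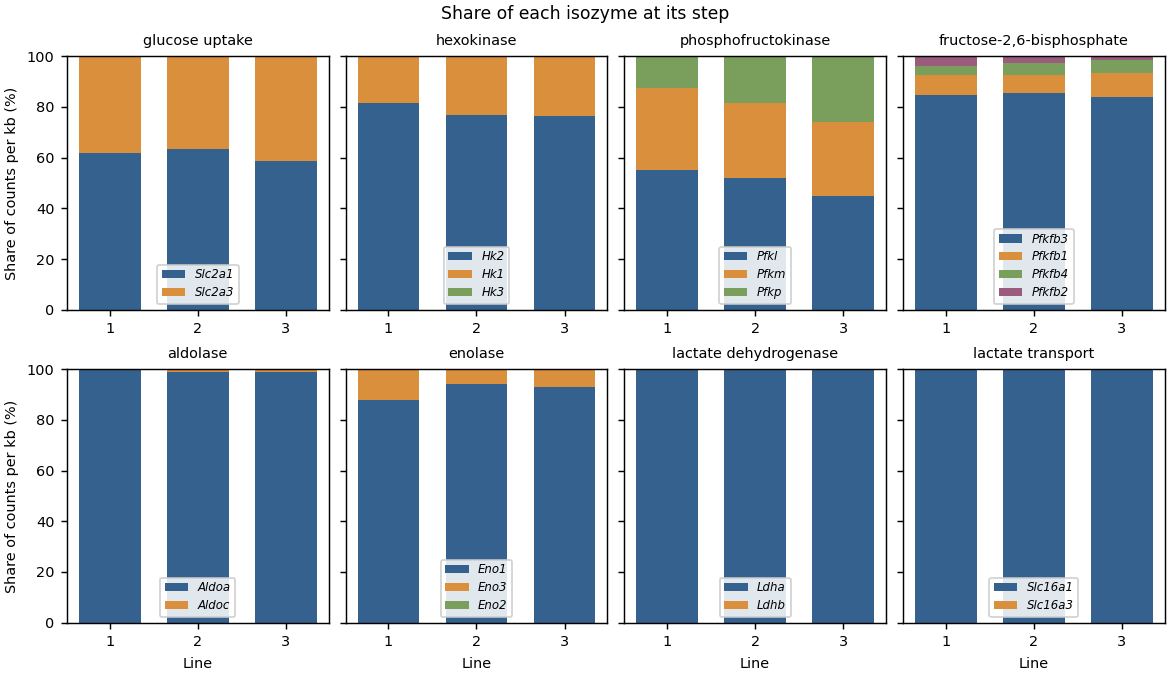
Share of each isozyme in the counts per kb of its step (%), for 8 steps with more than 1 isozyme and for each line (bars 1 to 3). Per kb of merged exons Pfkp takes 12.4% of phosphofructokinase in line 1 and 25.9% in line 3 (25.9% and 46.7% in counts without division by length), and Ldha and Slc16a1 fill their steps in each line.

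At the later steps of glycolysis 1 isozyme prevailed. Aldoa was read at 601, 596 and 718 CPM and took 99.2% ± 0.505 of the aldolase level per kb. Aldoc, known from brain, was read at 1.47, 7.90 and 8.01 CPM. Eno1 was read at 350, 335 and 361 CPM and took 91.6% ± 3.32 of the enolase level per kb. Eno3, the muscle enolase, was read at 15.8, 6.94 and 8.83 CPM, and Eno2, the neuronal enolase, had 1 count in line 3 and none in the others. Aldoc was low in line 1, and Eno3 was high in line 1.

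The steps with a single enzyme differed widely in level. Gpi1, the glucose-6-phosphate isomerase, was read at 481, 482 and 471 CPM. Tpi1, the triosephosphate isomerase, was read at 313, 323 and 305 CPM, and Pkm at 996, 1019 and 1008 CPM. These 3 genes differed between lines by less than 1.06-fold. The counts do not separate the Pkm isoforms M1 and M2, which share all but a single exon. Against these levels stood Gapdh at 13.2, 13.9 and 13.2 CPM, Pgk1 at 16.3, 18.4 and 30.8 CPM and Pgam1 at 19.1, 20.4 and 22.5 CPM. The enzymes of these 3 genes act one after another between triosephosphate isomerase and enolase.

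Gapdh, Pgk1 and Pgam1 share most or all of their coding sequence with other genes, so the reads they are assigned depend on how reads with several matches were treated, which the sources used here do not give. Each 50-base stretch, the length of a read, was looked up in every annotated transcript of other genes. For Gapdh (chr6:125161715-125166467, minus strand, GRCm38) 1107 of 1224 stretches of the main transcript, or 90.4%, were held by at least 1 other gene. For Pgk1 (chrX:106187100-106203699, plus strand) it was 68.0% of all stretches and 100% of the coding stretches. For Pgam1 (chr19:41911923-41918660, plus strand) it was 41.5% and 100%. Eno1 (chr4:150236721-150248879, plus strand) had 72.2% and 83.3%, and was read at 349 ± 13.3 CPM. The part of shared reads in this level was not tested. Shared sequence was not confined to genes with low counts. Gpi1 had 25.3% and 40.9%, Tpi1 7.51% and 13.7% and Pkm 34.4% and 52.9%. Pfkfb2 had 63.5%, all of it in Gm29427, which overlaps it on the same strand and had 0 counts. These stretches are shared within the same place and not with a copy elsewhere. The effect of reads that lie on both genes on the counts of Pfkfb2 was not tested. Over all transcripts of a gene, which include longer forms, the shares were 25.1% for Gapdh, 53.9% for Pgk1, 36.2% for Pgam1, 26.0% for Eno1 and 17.3% for Pfkfb2. The first coding stretches of Pgk1 and Pgam1 show what is shared: each is held unchanged by a processed pseudogene, Gm5537 and Pgam1-ps2, and the start codon is in capitals.

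Pgk1 coding bases 1 to 50: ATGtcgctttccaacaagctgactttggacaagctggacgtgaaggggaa
Pgam1 coding bases 1 to 50: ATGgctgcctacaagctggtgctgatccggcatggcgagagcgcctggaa

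The copies of Pgk1, Pgam1 and Eno1 were assigned hardly any counts. Of the 1207 shared stretches of Pgk1, Pgk1-rs7 holds 1206 and Gm5537 holds 1203, and Pgam1-ps2 holds all 716 of Pgam1. The counts of such copies depend on the same treatment of reads with several matches, so they do not show how many reads came from them. Summed over the copies in the count table that hold at least 5% of the stretches, counts were 0, 1 and 0 for Pgk1, 0, 0 and 1 for Pgam1 and 6, 3 and 6 for Eno1 in lines 1, 2 and 3. For Pgk1, 1 of 3 such copies was not matched in the count table, so its sum covers the other copies alone. Gapdh differed in this. At least 5% of its stretches were held by each of 105 other genes, of which 99 are annotated as pseudogenes, and these genes together had 3831, 2569 and 4425 counts against 287, 274 and 335 for Gapdh. Most of those counts stood at a single processed pseudogene, Gm13394 (chr2:28933610-28934609, minus strand, within Cfap77), with 3148, 1995 and 3739 counts. Gm13394 was thus counted 10.97, 7.28 and 11.2 times as often as Gapdh. The sum of both genes was 158, 115 and 160 CPM, which averages 144 ± 25.5 CPM (SD, n = 3).

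Gm13394 has 951 stretches of 50 bases, and 901 of them are also held by other genes. The other 50 form 1 run, from stretch 297 to 346, and all of them cover base 346 of the pseudogene. The 2 sequences below show this place, which is coding bases 395 to 444 of Gapdh. Coding bases of Gapdh are numbered in its transcript with the longest open reading frame, of 1077 bases, so numbers in a shorter form differ. The capital marks the substitution A30C, with the base of Gapdh first, the base of Gm13394 last and positions counted from the 5′ end of the stretch. A further stretch, coding bases 493 to 542 of Gapdh, is given because it is held unchanged by 84 other genes, including Gm13394.

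Gapdh coding bases 395 to 444: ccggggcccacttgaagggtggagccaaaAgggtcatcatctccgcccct
Gm13394 at the same place: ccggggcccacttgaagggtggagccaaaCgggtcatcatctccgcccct
Gapdh coding bases 493 to 542: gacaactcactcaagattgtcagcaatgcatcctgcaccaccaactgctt

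A pair of other scales was chosen after the data were seen. The first divided the CPM of the whole gene by the number of stretches of the main transcript in place of kb of merged exons. The second divided it by the number of only those stretches that no other gene holds. Reads were not counted over these stretches alone, so any shared reads stay in the CPM and a smaller divisor raises the value. Gapdh had rank 26 of the 34 genes per kb of merged exons and rank 25 per stretch of the main transcript. Per unshared stretch it had rank 11, at 115 ± 3.44 CPM per 1000 unshared stretches. On this last scale Gm13394 stood at 2619 ± 518 CPM per 1000 unshared stretches, with its whole CPM divided by only 50 stretches that all cover the same base. Its level without this scaling was 131 ± 25.9 CPM. Pgk1 had ranks 22, 23 and 17 on the 3 scales and Pgam1 ranks 21, 24 and 23. Eno1 had ranks 9, 6 and 3, so the change of transcript and the removal of shared stretches from the divisor each moved it by 3 ranks. The part of shared reads in the low counts of Gapdh, Pgk1 and Pgam1 was not tested.

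**Figure D3:**
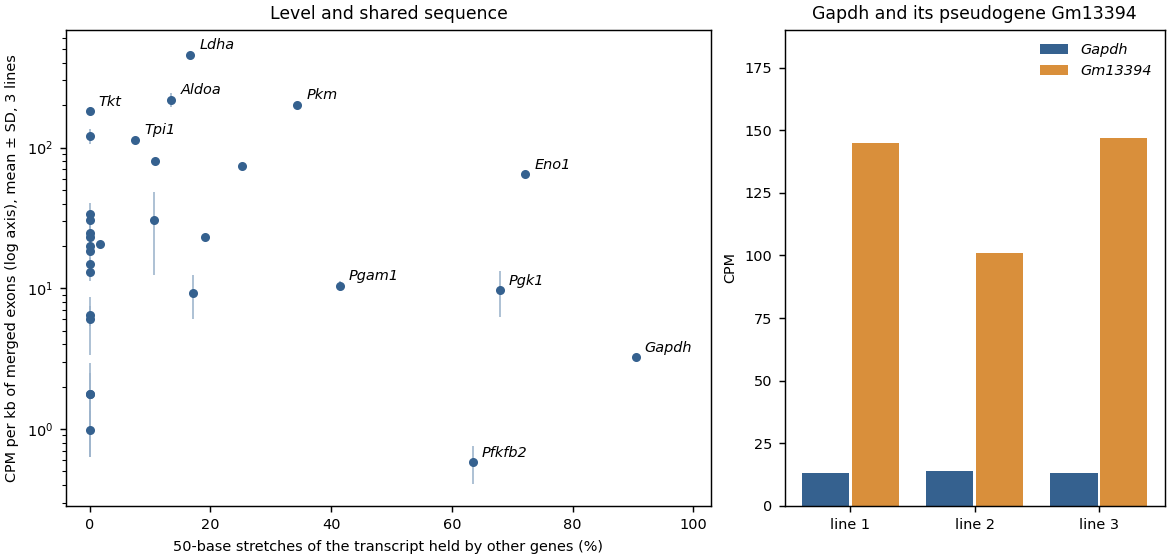
Left, level in CPM per kb (log axis, mean ± SD of the 3 lines) against the percentage of 50-base stretches held by other genes, for the 30 genes with a mean of at least 0.1 CPM per kb. Right, CPM of Gapdh and of its pseudogene Gm13394 in each line: Gapdh stays between 13.2 and 13.9 CPM and Gm13394 between 101 and 147 CPM.

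Lactate dehydrogenase was represented by a single isozyme. Ldha (chr7:46841475-46855627, plus strand) had 33699, 28219 and 39562 counts, and Ldhb (chr6:142490249-142507957, minus strand), the isozyme of heart muscle, had 0 in each line. Per kb, Ldha was at least 5328-fold, 4462-fold and 6255-fold higher than Ldhb in lines 1, 2 and 3, with 3 counts per library as the floor for Ldhb. The pseudogene Gm5514 holds 27.0% of the stretches of Ldhb and had 0, 0 and 1 counts. Of the lactate transporters, Slc16a1 (MCT1) was read at 555, 585 and 460 CPM, and Slc16a3 (MCT4) had 4, 5 and 1 counts. Slc16a1 took 99.98% ± 0.0149 of their joint level per kb. Bsg, the chaperone that both transporters need at the cell surface, was read at 239, 224 and 243 CPM.

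In the oxidative arm of the pentose phosphate pathway all 3 genes had the same order of lines. This order was not particular to the arm: Taldo1, Rpe, Hk1, Pfkp and Pgk1, among others, also rose from line 1 to line 3. The share of all genes with this order was not taken. Without line 1, Pgls did not differ between lines 2 and 3 in the test described below. G6pdx, the enzyme that commits glucose-6-phosphate to the pathway, was read at 56.0, 67.8 and 157 CPM. Pgls, which hydrolyses the lactone, was read at 95.3, 122 and 127 CPM, and Pgd, which forms ribulose-5-phosphate, at 181, 210 and 263 CPM. Each was lowest in line 1 and highest in line 3, by 2.80-fold, 1.34-fold and 1.45-fold. The 4 genes of the non-oxidative arm were steadier. Tkt was read at 1293, 1432 and 1286 CPM, Taldo1, the transaldolase, at 172, 175 and 178 CPM, Rpia, the ribose-5-phosphate isomerase, at 107, 104 and 108 CPM, and Rpe, the epimerase, at 69.6, 70.1 and 76.7 CPM. The highest line of these genes was at most 1.11-fold above the lowest.

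The question of which genes vary between the lines was put to the counts in 2 ways. First, the counts of each gene were compared with the library sizes by a chi-square test, adjusted after Benjamini and Hochberg over all genes. By this test 24 of the 31 genes with at least 10 counts, or 77.4%, differed at 0.05. Of all 13974 genes tested, 66.8% differed, so a difference larger than counting noise was common to most genes. The test compares libraries, not conditions. The 7 genes that did not pass were Slc2a1 (adjusted p = 0.052), Gpi1 (0.20), Gapdh (0.81), Pkm (0.092), Slc16a3 (0.21), Rpia (0.39) and Taldo1 (0.37). Under another scaling or filter, Slc2a1, Gpi1 or Pkm passed in at least 1 case each, and Pgam1, Rpe or Tpi1 no longer did, so these 6 calls depend on the scaling or filter. Gapdh, Rpia and Taldo1 passed under none of them. By size, 6 of the 28 genes with a mean of at least 5 CPM, or 21.4%, had a highest line at least 1.5-fold above the lowest, against 22.9% of all 9389 such genes. The median ratio of highest to lowest line was 1.21 over the 28 genes and 1.23 over all. By size, the genes of both pathways thus lay near the share and the median of all genes.

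The 6 genes were Pfkp (1.98-fold), Pfkfb1 (1.96-fold), Aldoc (5.43-fold), Pgk1 (1.89-fold), Eno3 (2.27-fold) and G6pdx (2.80-fold). Of the 28 genes, Pfkfb3 and Pgd came next, both under the limit, with 1.46-fold and 1.45-fold. Pfkfb4 (2.07-fold) and Pfkfb2 (1.83-fold) also passed 1.5-fold, but their means of 4.82 and 4.20 CPM lay under the limit of 5 CPM. Line 3 had the highest value of 17 of the 28 genes and of 37.6% of all such genes, and line 1 had the lowest value of 12 of the 28 and of 35.2% of all. Without line 3, Eno3 alone met both limits, 1 of 27 genes with 10.2% of all genes as background. Without line 1, 3 genes met them (G6pdx, Pfkfb1 and Pgk1), with a background of 14.4%, and without line 2 all but Aldoc did, with a background of 15.8%. Aldoc was left out without line 2 or line 3 by its mean of 4.71 CPM, under the limit of 5 CPM, and not by its fold, since line 1 stayed far below the other line.

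For 4 of the 6 genes, the other genes around them moved with them. The neighbours were the expressed genes that start within 5 Mb on each side, and their median log2 deviation from the mean over the lines was taken in each line. This median differed between lines by at least 0.5 around 5 of the 34 genes (Hk3, Pfkp, Pfkfb1, Pgk1 and G6pdx). With a mean of at least 5 CPM it was 4 of 28, all but Hk3, against 6.11% of all such genes. Pfkp lies at chr13:6579768-6648777 (minus strand). In line 1 it was 0.70 lower on the log2 scale than in the mean of the other lines (-0.70), and its 16 neighbours had a median of -0.90 and were all lower. Its 3′ end overlaps the opposite gene Pitrm1, with 2895, 4392 and 7134 counts, and 17.1% of its stretches are held there, so without a stated strand setting the reads of both cannot be told apart at this place. Other members also overlap opposite genes. Kansl1l holds 19.1% of the stretches of Rpe. Senp1 (2711, 2531 and 3796 counts) overlaps Pfkm and Apex2 (458, 460 and 1087 counts) overlaps Pfkfb1, but neither holds a stretch of the main transcript.

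The other 3 of the 4 genes that moved with their neighbours lie on the X chromosome, and line 3 was the high line for each. Pgk1 was 0.79 higher there than in the mean of the other lines on the log2 scale, and its 34 neighbours had a median of 0.90. Pfkfb1 (chrX:150588229-150643878, plus strand) was 0.81 higher, with a median of 0.75 over 25 neighbours. For both genes the difference lay close to that of the genes around them. G6pdx (chrX:74409483-74429194, minus strand) was 1.33 higher, with a median of 0.95 and quartiles of 0.44 and 1.11 over its 54 neighbours, of which 5 were raised as far. G6pdx thus lay above the upper quartile of its neighbours, and Ikbkg, which overlaps it on the opposite strand, had 1291, 1167 and 2570 counts. In another part of the X chromosome, around Gata1 (chrX:7959260-7978071), the neighbours did not move. The median log2 deviation of these 34 genes was -0.04, 0.03 and 0.001 in lines 1, 2 and 3. Line 3 also differed in sex-linked genes: Xist, the RNA that coats an inactive X chromosome, had 18, 15 and 1350 counts, and the Y-linked Kdm5d had 954, 1135 and 2. The part of these shifts in the levels of the 4 genes was not tested, and a difference between lines in these genes cannot be told apart from that of their chromosome region.

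Around Aldoc and Eno3, both on chromosome 11, the neighbours did not move: their medians lay between -0.03 and 0.04 in each line. Aldoc deviated by -1.24, 0.61 and 0.63 on the log2 scale in lines 1, 2 and 3, from 32, 156 and 204 counts. Eno3 deviated by 0.62, -0.46 and -0.15, from 342, 137 and 225 counts. Both are minor isozymes of their step, and their major isozymes Aldoa and Eno1 varied by 1.20-fold and 1.08-fold. For Pgls and Pgd as well the range of the neighbours between lines was only 0.07.

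**Figure D4:**
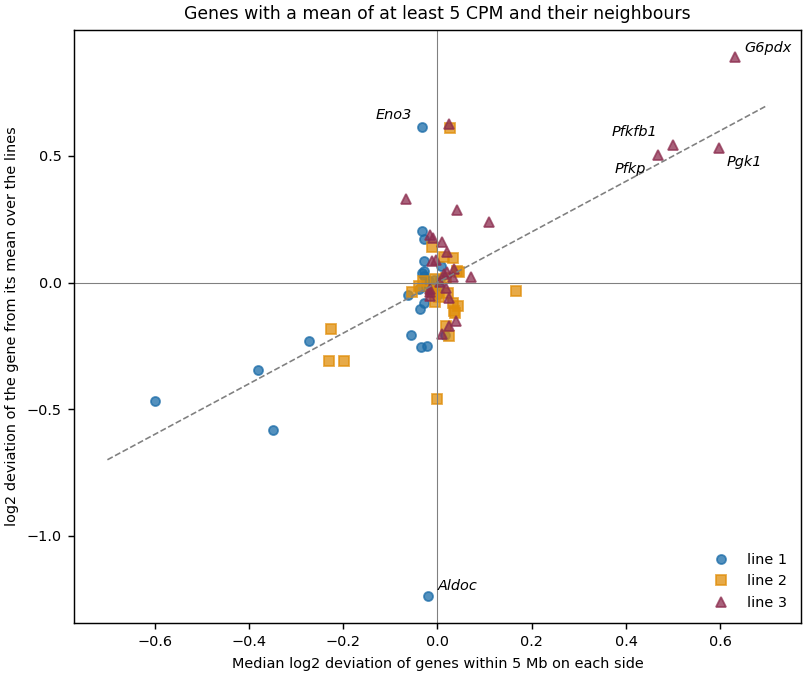
Deviation of each gene from its mean over the lines (log2) against the median deviation of the expressed genes within 5 Mb on each side, for the 28 genes with a mean of at least 5 CPM, with 1 symbol per line. The dashed line marks equal deviation: Pgk1, Pfkfb1 and Pfkp lie close to it and G6pdx lies above it in line 3, whereas Aldoc (-1.24 in line 1) and Eno3 (0.62 in line 1) deviate with their neighbours near 0.

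Of 36 further isozymes, transporters and side branches of the pathways, 35 were found, 10 had a mean of at least 5 CPM and 13 had no counts at all. Those without counts include isozymes of other tissues such as Slc2a2, Slc2a4, Pklr, Pgam2, Ldhc and Gapdhs. Besides Bsg, the highest were Pgm1, the phosphoglucomutase, at 109 ± 5.46 CPM, Adpgk, the ADP-dependent glucokinase, at 93.2 ± 6.40 CPM and H6pd, the glucose-6-phosphate dehydrogenase of the endoplasmic reticulum, at 57.4 ± 0.944 CPM. Pgm2, which acts on ribose phosphates, stood at 46.2 ± 7.91 CPM, Tigar, which lowers fructose-2,6-bisphosphate, at 33.2 ± 2.43 CPM and Bpgm, which makes 2,3-bisphosphoglycerate, at 7.87 ± 1.33 CPM. Among the 14 tested genes of this list 11 differed between the lines, with 66.8% of all genes as background.

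Of the 10 further genes with a mean of at least 5 CPM 3 passed 1.5-fold, with 22.9% of all genes as background. Slc2a9, a urate and hexose transporter, was read at 49.4, 32.2 and 37.9 CPM, and Slc2a6, a lysosomal hexose transporter, at 5.21, 5.62 and 9.97 CPM. Fbp1, which reverses the step of phosphofructokinase in gluconeogenesis, was read at 15.8, 5.62 and 5.10 CPM. It was 1.41 higher in line 1 than in the mean of the other lines on the log2 scale, and its 53 neighbours on chromosome 13 had a median of 0.79, with 2 of them raised as far. The neighbours of Slc2a9 on chromosome 5 had a median deviation of 0.29 in line 1, and those of Slc2a6 stayed within 0.03. Below 5 CPM, Shpk (0.79 to 2.07 CPM) and Slc2a8 (1.93 to 4.05 CPM) also passed 1.5-fold. Slc2a5 had 2, 5 and 10 counts and Eno4 had 6, 1 and 1, which is too close to the floor of 3 counts for a fold.

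Of 12 regulators of the pathways, 10 had a mean of at least 5 CPM and 9 of these differed between the lines, again with 66.8% of all genes as background. Myc, a transcription factor that drives many glycolytic genes, was read at 715, 659 and 553 CPM. Hif1a, the oxygen-regulated subunit of hypoxia-inducible factor, was read at 185, 159 and 97.4 CPM, and was the only 1 of these 10 regulators that passed 1.5-fold, against 22.9% of all genes. In line 3 it was lower than in the mean of the other lines (-0.81 on the log2 scale), as were its 53 neighbours on chromosome 12 with a median of -0.80. Its partner Arnt was read at 70.9, 79.0 and 76.3 CPM. Of the enzymes that mark it for degradation, Egln1 was read at 68.9, 79.5 and 91.2 CPM and Egln3 had 1 count in line 3 alone. Txnip, which curbs glucose uptake, was read at 137, 122 and 164 CPM. Pdk1, the kinase that holds pyruvate back from the mitochondria, was read at 186, 188 and 240 CPM. Among the other regulators, the glucose-sensing partners Mlx and Mlxip had means of 49.6 ± 9.65 and 191 ± 14.4 CPM, Tfeb, a factor of lysosomal genes, 51.7 ± 5.47 CPM and Vhl, the ubiquitin ligase subunit that binds hydroxylated Hif1a, 26.6 ± 0.96 CPM. Line 3 had the lowest level of Hif1a and Myc, and the highest of Pdk1 and Txnip.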

How the data were processed

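RNA-seq counts of the 3 Cdk6 KM/KM lines were used. The authors ran Trimmomatic on the reads, mapped them with STAR (mm10) and used featureCounts on the exons of Gencode genes. The deposited values are raw counts per gene without normalization. The 6 other sample columns of the table were not used. The paper names a TruSeq kit and the sample record a SENSE kit with single-end reads of 50 bases. Strand setting and treatment of reads with several matches are not given in the sources used here.

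Of 50686 genes, 50462 were matched by identifier to Gencode M21, on the same assembly. The table holds 0 rows without a gene. Libraries had 21569845, 19633463 and 25773221 counts. Counts were scaled with edgeR 4.0.16 (TMM, R 4.3.3) over genes whose counts summed to at least 10. Homogeneity was tested by chi-square against the scaled library sizes, tested on simulated data. P-values measure the spread between these libraries only, and intervals and floors cover counting error only. Deviations are of log2(CPM + 1). Neighbours had a mean log2 level of at least 2. Any pair of libraries differed in at least 6099 genes, and none was a duplicate. The design planned to search the 50-base stretches in the genome, for which annotated transcripts of other genes were used instead, so copies without one are not seen.

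Members and gene lists were chosen with earlier results of these data known. Named are members with a highest line at least 1.5-fold above the lowest and a mean of at least 5 CPM, the isozymes of each step, those with at least 50% of stretches held elsewhere, single-enzyme steps, and further genes past 5 CPM or 1.5-fold. Gm13394 was named after its counts were seen. As alternatives, the size factors of DESeq2 1.42.0, plain library sizes, other filters, other lengths and windows, and leaving out each line were tried. Python 3.11.15, numpy 2.4.6, pandas 2.3.3 and scipy 1.17.1 were used.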

Additional observations from a re-analysis of the deposited data

How the results depend on the processing

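With 3 lines of 1 genotype the counts give spreads and no effect, and the reads of Gapdh, Pgk1 and Pgam1 depend on an unstated treatment of reads with several matches. No paired analysis was possible because all libraries belong to 1 group. Under every other scaling or filter, 24 or 25 of the 30 to 33 genes tested differed between lines, though not the same genes. Slc2a1, Gpi1, Pkm, Pgam1, Rpe and Tpi1 changed side in at least 1 case. The share of all genes under these settings was not taken. Without lines 1, 2 and 3 in turn, 19, 20 and 16 of 30 genes differed. Of all genes, 7201 of 13263, 7307 of 13331 and 6099 of 12948 differed between the remaining lines. The number past 1.5-fold was 6 under the other scalings and filters and 1 to 5 with 1 line left out. Fewer lines were then compared, and Aldoc fell under 5 CPM without line 2 or line 3. The summed level of the 34 genes was 7874 CPM, 7805 to 7928 CPM with 1 line left out. When the transcript with the longest open reading frame gave the length, the shares were 48.3% for Slc2a1, 63.8% for Hk2, 89.2% for Pfkfb3 and 96.3% for Eno1. Without division by length they were 43.5%, 71.6%, 89.6% and 97.1%. The shares of Pfkl, Aldoa, Ldha and Slc16a1 moved by less than the spread between lines, whereas Pfkp and Pfkm changed places. Windows of 2 Mb and 10 Mb gave the same count of 5 genes with shifted neighbours. Over all transcripts of a gene, 1 gene (Pgk1, 53.9%) in place of 4 had at least 50% of its stretches elsewhere, with Gapdh at 25.1%, Eno1 at 26.0% and Pfkfb2 at 17.3%, and the cause was not tested. A search in annotated transcripts alone was the search used, so it was not run as an alternative.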
